A study of Mus musculus with 21 samples.

Results

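RNA of 2 fractions of mouse common myeloid progenitors (CMPs) was compared, the cells with high surface CD62L and the cells without it. The members were the 3 libraries labelled CD62L-high CMP and the 3 labelled CD62L-low CMP, 6 of the 21 libraries in the series, and they were taken by these labels, not by measured values. The study calls the second fraction CD62L-neg CMPs, and that name is used here. The cells came from the bone marrow of adult mice of the strain labelled C57/B6, with no treatment or transgene named in the labels. In both fractions, cells had been sorted as lineage-negative, SCA-1-, C-KIT+, CD16/32- and CD34+, so they differed by design in CD62L only, and CMPs with intermediate CD62L were in neither. A fraction can hold cells of several types. For bulk RNA of this kind, fewer cells of a type and less RNA per cell cannot be told apart. The study does not say whether the 3 libraries of a fraction came from separate mice, so p-values measure the spread between libraries, which may be technical.

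CD62L is an adhesion receptor that binds sialylated and sulphated sugars on endothelium and on other leukocytes. CMPs give rise to granulocyte-monocyte progenitors (GMPs) and to megakaryocyte-erythrocyte progenitors. These paths use different growth factor receptors, different transcription factors and, later, different enzymes. The comparison addressed how cells of the CMP gate that differ in CD62L differ in their RNA. It is taken here beyond lineage markers to receptors, signalling, metabolism and transcription factors.

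Levels are in CPM, counts scaled to a common library total with TMM factors, values of 3 libraries are listed in the order of replicates 1, 2 and 3, and mean ± SD is over 3 libraries. A fold change is given as a log2 value ± its standard error, CD62L-high minus CD62L-neg. Calls needed more than a 2-fold difference and a Benjamini-Hochberg adjusted p below 0.05 in edgeR's quasi-likelihood test of the 6 libraries. Where a gene had no count in one fraction, the fold is a bound against a floor of 3 counts over its 3 pooled libraries. For 1 to 3 counts, the ratio comes with its 95% interval. Bounds and intervals cover counting error only. For every gene named below as called, all libraries of one fraction lay above all libraries of the other.

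Of the antigens both fractions were sorted on, *Kit* stood at 459.5, 401 and 454 CPM in CD62L-neg CMPs and at 210.0, 239 and 253 CPM in CD62L-high CMPs, and *Ly6a*, which encodes SCA-1, had 3 counts in all CD62L-neg and 34 in all CD62L-high libraries. The CD16/32 genes were higher in every CD62L-high library. *Fcgr3* stood at 7.11, 9.58 and 9.65 CPM in CD62L-neg and 16.7, 14.8 and 16.3 CPM in CD62L-high CMPs. *Fcgr2b* stood at 15.5, 9.58 and 10.5 CPM and 28.4, 24.9 and 19.8 CPM. Libraries of CD62L-neg CMPs held 7062317 to 7509818 counts and those of CD62L-high CMPs 11683991 to 14650082, so every CD62L-high library was deeper. With all libraries thinned to the smallest total, 794 genes were called higher and 910 lower, against 835 and 959 at full depth. Composition differed as well. Protein-coding genes held 60.2% to 62.5% of counts in CD62L-neg and 66.4% to 67.4% in CD62L-high libraries. The gene models *Gm23935*, *Gm26917* and *Gm42418* together held 28.8% to 31.7% and 23.6% to 24.9%. Thinning evens depth only. A difference in preparation or sequencing cannot be told apart from the fraction. The first principal component of the 6 libraries separated the fractions and carried 77.4% of the variance. CD62L-neg replicate 1 stood apart on the second component, at 23.2 against -5.38 and -14.7 for the other CD62L-neg libraries. Of the genes called higher in CD62L-high CMPs, 66.8% had their CD62L-neg value nearest to the CD62L-high mean in this replicate. The same share was 44.3% of genes called lower and 38.2% of all genes tested. Without it, 1012 genes were called higher and 915 lower.

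The summed levels of basophil and mast cell, eosinophil and mature erythroid genes were higher in every CD62L-neg library than in any CD62L-high library, and those of lymphocyte genes were low in both fractions. B cell genes summed to 7.12 to 12.4 CPM in CD62L-neg and 8.94 to 11.6 CPM in CD62L-high libraries, with 1 of 10 tested and *Ms4a1* at 0. The 14 T and NK cell genes summed to 0.972 to 7.51 CPM and 7.15 to 12 CPM, with *Cd3d*, *Cd3g* and *Trac* at 0, and 1 of 2 tested was called higher. The 13 basophil and mast cell genes summed to 270.4 to 327 CPM in CD62L-neg and 35.7 to 57.1 CPM in CD62L-high libraries, with *Mcpt4* and *Tpsab1* at 0. Of 7 tested 6 were called lower and 1 higher. The 1 called higher was the basophil protease gene *Mcpt8*, with 7 counts in CD62L-neg and 137 in CD62L-high libraries. The 12 mature erythroid genes summed to 213.5 to 239 CPM and 17.3 to 32.1 CPM, and 5 of 6 tested were called lower. Most of the erythroid sum was *Car2*, a carbonic anhydrase, at 160 to 202 CPM in CD62L-neg and 16.4 to 23.5 CPM in CD62L-high libraries. In CPM, *Slc4a1* (0.132, 0.556 and 0.148, then 0.422, 0.877 and 1.18) and the hemoglobin genes were low in both fractions and overlapped. *Hbb-bs* stood at 0, 1.39 and 0 CPM and 0, 0.337 and 1.25 CPM. *Hbb-bt* stood at 0.395, 1.39 and 0 CPM and 0.0843, 0.742 and 1.84 CPM, and *Hba-a1* at 0.79, 3.19 and 2.67 CPM and 0, 0.674 and 3.61 CPM. The 11 eosinophil genes summed to 34.8 to 41.4 CPM and 4.07 to 11 CPM, with *Ear1* and *Ear10* at 0, and the 1 tested was called lower. That gene, *Siglecf*, made up most of the eosinophil sum (780 and 156 counts), whereas the granule protein genes *Prg2* (16 and 75), *Epx* (0 and 22) and *Prg3* (0 and 9) had more counts in the deeper CD62L-high libraries. In CPM, *Prg2* overlapped between the fractions, at 1.45, 0.694 and 0 CPM and 4.38, 0.742 and 0.789 CPM. Endothelial and stromal genes summed to 275 to 308 CPM and 183 to 189.9 CPM, with *Dcn*, *Lepr* and *Lum* at 0. Of 6 tested, 3 were called lower and 1 higher. *Vwf*, which the study counts among megakaryocytic genes, stood at 125, 176 and 191 CPM in CD62L-neg and 5.31, 1.89 and 5.32 CPM in CD62L-high libraries. *Pecam1*, the gene called higher, stood at 68.2, 49.4 and 57.1 CPM and 149, 139 and 137 CPM. Marrow macrophage genes (16.3 to 26.2 and 14.5 to 17.5 CPM) and mature neutrophil genes (3.75 to 9.35 and 14.2 to 16.4 CPM) summed to little in both. The neutrophil sums did not overlap, and 2 of 3 tested neutrophil genes were called higher. Of 4 tested macrophage genes, 1 was called higher and 1 lower. Among 5 tested genes of lineage antigens removed by the sort, 2 were called higher and 1 lower. The part of basophils, mast cells, eosinophils or erythroid cells in the genes described as lower was not tested. Nor was the part of neutrophils or lymphocytes in the genes described as higher.

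Of 12830 genes tested, 835 (6.51%) were called higher in CD62L-high CMPs and 959 (7.47%) were called lower. The median log2 fold change of all genes was -0.02. Libraries of the fractions did not overlap for 41.8% of genes. Lists of receptors, signalling proteins, metabolic enzymes, channels and transcription factors held 1516 tested genes, of which 259 (17.1%) were called higher and 202 (13.3%) lower. Receptors had the highest share of calls of these classes, as 94 of 222 (42.3%) were higher and 42 (18.9%) lower. The shares were 11.8% and 14.3% of 414 signalling genes, 13.7% and 9.82% of 570 metabolic genes, and 12.6% and 14.4% of 278 transcription factors and chromatin enzymes.

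**Figure D1:**
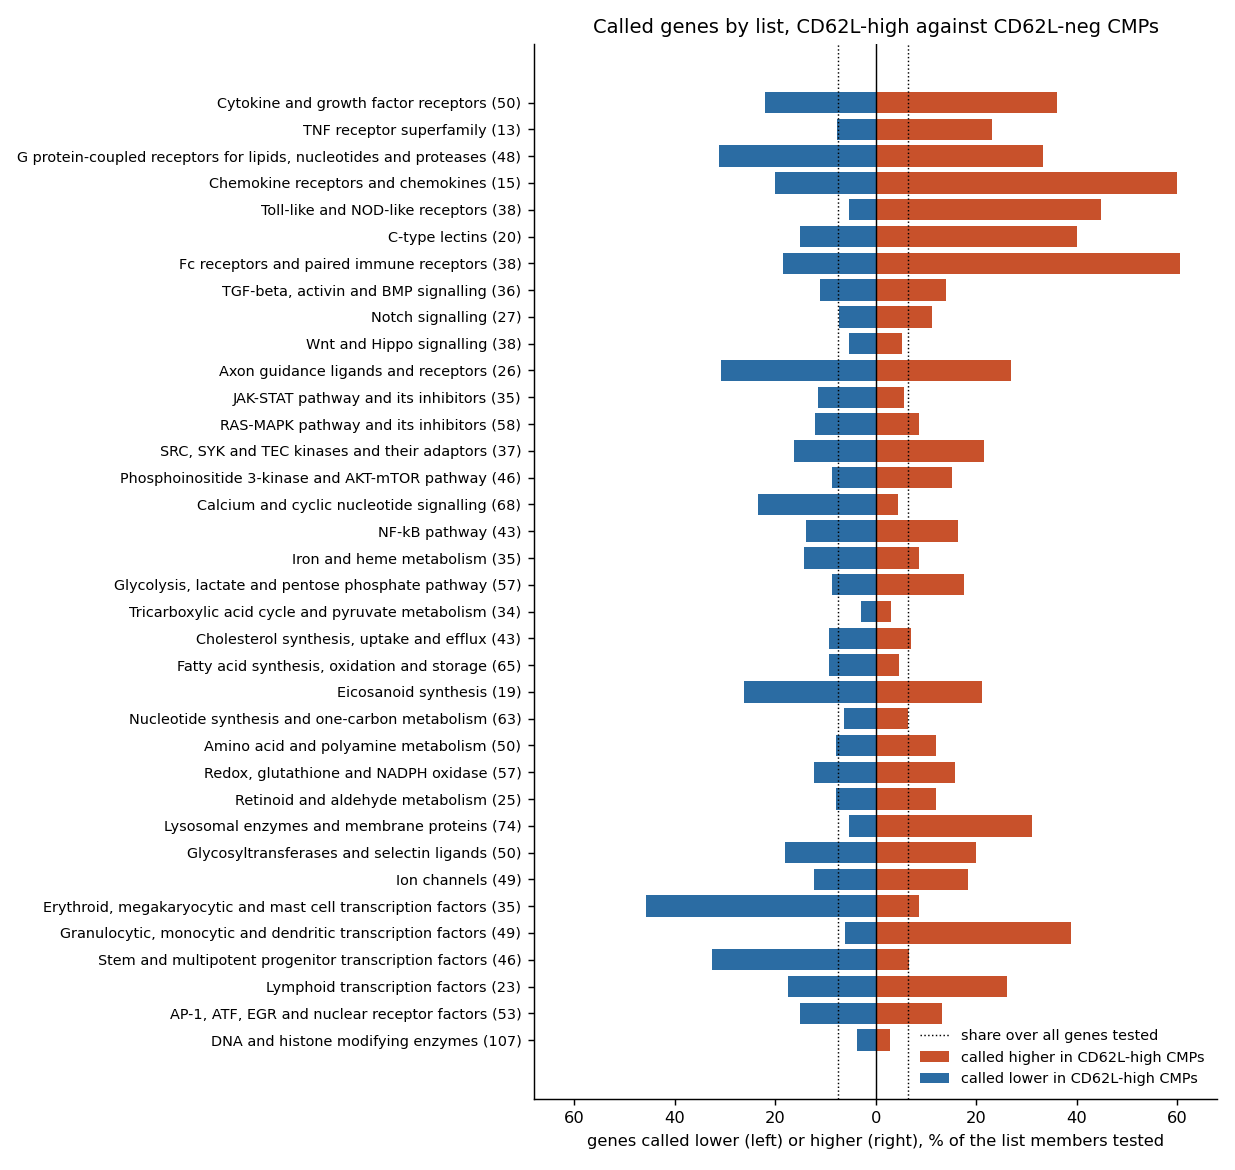
Bars give the percent of tested members of each list called higher (right) or lower (left) in CD62L-high CMPs, the number tested is in parentheses, and dotted lines mark 6.51% and 7.47% over all genes. Chemokines with their receptors reach 60% and Fc and paired immune receptors 60.5% on the right, whereas erythroid, megakaryocytic and mast cell factors reach 45.7% on the left.

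The receptors for cytokines and growth factors changed in both directions. Of 50 tested, 18 were called higher and 11 lower. The largest fold rise was in *Csf1r*, the receptor for macrophage colony-stimulating factor. It stood at 6.72, 3.06 and 2.23 CPM in CD62L-neg and 215, 181 and 181 CPM in CD62L-high CMPs (log2 fold change 5.56 ± 0.24, adjusted p = 8.5e-11). *Met*, the receptor of hepatocyte growth factor, stood at 1.84, 2.22 and 3.26 CPM and 89.2, 79.4 and 81.5 CPM (log2 fold change 5.10 ± 0.20, adjusted p = 2.6e-11). For both genes, the lowest CD62L-high library lay far above the highest CD62L-neg library. *Il6st*, which encodes the gp130 chain shared by receptors of the IL-6 family, stood at 15, 12.2 and 10.7 CPM and 288, 219 and 172 CPM (log2 fold change 4.15 ± 0.20, adjusted p = 1.9e-10). The chain that binds IL-6 itself, *Il6ra*, stood at 14.1, 11.3 and 11.4 CPM and 118, 115 and 114 CPM (log2 fold change 3.23 ± 0.14, adjusted p = 9.2e-11). Both chains of this receptor thus were higher, with no overlap. Per kilobase of exons, *Il6ra* was at 1.42 ± 0.185 and *Il6st* at 1.14 ± 0.198 CPM in CD62L-neg CMPs, and at 13.4 ± 0.262 and 20.4 ± 5.28 CPM in CD62L-high CMPs. *Flt3*, the receptor of FLT3 ligand, stood at 62.6, 7.92 and 4.45 CPM and 273, 230.1 and 283 CPM (log2 fold change 3.37 ± 0.55, adjusted p = 2.0e-04). Its values did not overlap, but CD62L-neg replicate 1 was several times above the other CD62L-neg libraries. *Il10ra*, an IL-10 receptor chain, rose from 2.16 ± 0.601 to 31.9 ± 3.05 CPM (log2 fold change 3.86 ± 0.26, adjusted p = 1.3e-08), and *Csf3r*, the G-CSF receptor, from 17.5 ± 12.2 to 88.2 ± 13 CPM (log2 fold change 2.32 ± 0.30, adjusted p = 1.9e-05).

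Several receptors of erythroid, mast cell and vascular growth factors fell. *Epor*, the erythropoietin receptor, stood at 11.6, 14.2 and 11.7 CPM in CD62L-neg CMPs and had no count in CD62L-high CMPs, at least 175-fold lower (adjusted p = 1.6e-07). *Kdr*, a VEGF receptor, stood at 10.5, 11.9 and 7.42 CPM and also had no count in CD62L-high CMPs, at least 140.1-fold lower (adjusted p = 7.0e-07). Both genes thus were read in every CD62L-neg and in no CD62L-high library. *Il1rl1*, the IL-33 receptor of mast cells and basophils, stood at 54, 51.9 and 49.4 CPM in CD62L-neg CMPs and had 3 counts in all of CD62L-high CMPs. The ratio of CD62L-neg to CD62L-high was 725 with a 95% interval of 247 to 3519.6 (adjusted p = 5.0e-11). *Tek*, which encodes the angiopoietin receptor TIE2, stood at 33.5, 48.2 and 43.2 CPM and 2.02, 4.38 and 1.71 CPM (log2 fold change -3.93 ± 0.30, adjusted p = 4.9e-08). *Igf1r*, the receptor of insulin-like growth factor, fell from 333 ± 24.3 to 116 ± 19.5 CPM (log2 fold change -1.53 ± 0.13, adjusted p = 1.5e-07). Other receptors at high levels were not called. *Kit* was at a log2 fold change of -0.90 ± 0.11 (adjusted p = 8.5e-06), short of the fold threshold, the IL-17 receptor gene *Il17ra* at -0.29 ± 0.12 (adjusted p = 0.074), and the insulin receptor gene *Insr* at -0.14 ± 0.14 (adjusted p = 0.51). *Ifnar1*, a chain of the type I interferon receptor, was at 0.74 ± 0.15 (adjusted p = 0.0015). Of 13 tested TNF receptor family genes, 3 were called higher and 1 lower, and 5 and 0 without CD62L-neg replicate 3. *Tnfrsf1a*, the main TNF receptor, rose from 27.7 ± 7.53 to 75.5 ± 4.46 CPM (log2 fold change 1.44 ± 0.17, adjusted p = 7.7e-06).

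G protein-coupled receptors for lipids, nucleotides and proteases split almost evenly, with 16 of 48 called higher and 15 lower. Thrombin receptors fell furthest. *F2r*, which encodes PAR1, stood at 251, 294 and 279.6 CPM in CD62L-neg CMPs and 3.54, 6.27 and 7.75 CPM in CD62L-high CMPs (log2 fold change -5.53 ± 0.20, adjusted p = 9.6e-12). *F2rl2*, which encodes PAR3, stood at 20.7, 29.7 and 28.6 CPM and 0.0843, 0.135 and 0.131 CPM (log2 fold change -7.65 ± 0.40, adjusted p = 6.9e-10). Neither reached, in any CD62L-high library, a level near that of CD62L-neg CMPs. *P2ry1*, an ADP receptor of platelets, stood at 48.2, 56.1 and 54 CPM and 5.82, 4.86 and 1.71 CPM (log2 fold change -3.70 ± 0.29, adjusted p = 8.3e-08), and 23% of its exon length overlaps another gene. *Adgrl2*, an adhesion receptor of the latrophilin family, stood at 121, 117 and 142 CPM and 9.36, 16.4 and 12.9 CPM (log2 fold change -3.29 ± 0.18, adjusted p = 1.0e-09). The sphingosine 1-phosphate receptors moved apart. *S1pr1*, which guides the exit of blood cells from tissues, stood at 23.8, 34.9 and 41.3 CPM and 2.11, 6 and 5.52 CPM (log2 fold change -2.85 ± 0.32, adjusted p = 3.6e-06), whereas *S1pr3* stood at 1.58, 0.556 and 1.04 CPM and 28.1, 27.2 and 17.4 CPM (log2 fold change 4.49 ± 0.36, adjusted p = 9.6e-08). Both pairs of groups were separate. *Cnr2*, the cannabinoid receptor of immune cells, fell from 24.7 ± 3.8 to 3.01 ± 0.934 CPM (log2 fold change -3.03 ± 0.29, adjusted p = 5.7e-07). Higher were the orphan or lysophospholipid receptors *Gpr171* (2.54 ± 0.36, adjusted p = 4.7e-05), *P2ry10* (3.16 ± 0.44, adjusted p = 4.0e-05) and *Gpr141* (3.60 ± 0.48, adjusted p = 2.8e-05).

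Chemokine receptors and chemokines were called higher in 9 and lower in 3 of 15 tested. *Ccl3*, a chemokine of monocytes and macrophages, stood at 34.9, 8.47 and 6.23 CPM and 115, 155 and 161 CPM (log2 fold change 3.10 ± 0.40, adjusted p = 1.6e-05). *Cx3cr1*, the fractalkine receptor of monocytes, stood at 6.72, 2.5 and 0.297 CPM and 39.1, 26.1 and 22.7 CPM (log2 fold change 3.17 ± 0.48, adjusted p = 1.0e-04). The fractions did not overlap for either gene. In both, CD62L-neg replicate 1 was the highest of its fraction. *Ccl6*, a chemokine of myeloid cells, had 3 counts in all of CD62L-neg CMPs and rose to 6.84 ± 1.38 CPM, a ratio of 49.5 with a 95% interval of 16.8 to 241 (adjusted p = 1.3e-05). *Cxcl2*, a ligand of CXCR2, fell from 7.76 ± 3.37 to 1.27 ± 0.621 CPM (log2 fold change -2.61 ± 0.52, adjusted p = 0.0012), and *Ccrl2*, a chemerin-binding receptor that does not signal, from 13.9 ± 2.62 to 2.93 ± 0.612 CPM (log2 fold change -2.25 ± 0.33, adjusted p = 6.0e-05). The largest fall of the list was in a platelet gene. The chemokine *Pf4* stood at 110.3, 139 and 107 CPM and 0, 0.54 and 0.46 CPM (log2 fold change -8.33 ± 0.31, adjusted p = 1.0e-11).

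Genes of innate recognition were called higher more often than lower. Toll-like and NOD-like receptors and their partners were called higher in 17 and lower in 2 of 38, the latter in 1 without CD62L-neg replicate 2, and C-type lectins in 8 and 3 of 20. *Unc93b1*, the chaperone that carries nucleic acid-sensing Toll-like receptors to endosomes, stood at 35.2, 24.4 and 17.4 CPM and 331, 252 and 293 CPM (log2 fold change 3.50 ± 0.20, adjusted p = 1.4e-09). *Ly86*, which encodes the MD-1 partner of RP105, stood at 1.71, 1.39 and 0 CPM and 76.4, 49.1 and 67.7 CPM (log2 fold change 5.90 ± 0.38, adjusted p = 8.0e-09). *Mefv*, which encodes pyrin, stood at 0.132, 1.53 and 0.297 CPM and 26.5, 32.4 and 22 CPM (log2 fold change 5.35 ± 0.45, adjusted p = 1.5e-07). All 3 genes were higher in every CD62L-high library. *Tlr3*, a sensor of double-stranded RNA, had 3 counts in all of CD62L-neg CMPs and reached 5.86 ± 3.34 CPM, a ratio of 44.2 with a 95% interval of 15 to 216 (adjusted p = 1.6e-04). Among lectins, *Clec9a*, a receptor of conventional dendritic cells for dead cells, had 2 counts in CD62L-neg CMPs and stood at 12.2, 11.2 and 11.1 CPM in CD62L-high CMPs, a ratio of 123 with a 95% interval of 33.9 to 1021 (adjusted p = 5.9e-07). *Klrk1*, which encodes NKG2D, reached 5.59 ± 1.73 CPM from 2 counts, a ratio of 58.6 with a 95% interval of 16 to 487 (adjusted p = 6.0e-05). The lectins were not all higher. *Clec4d*, a myeloid lectin, fell from 8.2 ± 2.88 to 2.13 ± 0.836 CPM (log2 fold change -1.93 ± 0.45, adjusted p = 0.0036).

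Fc receptors and paired immune receptors were called in 30 of 38, as often as chemokines (12 of 15), with 23 higher, 7 lower and a median log2 fold change of 2.01. *Slamf7*, a self-binding receptor of immune cells, had 1 count in CD62L-neg CMPs and stood at 6.24, 11.8 and 12.7 CPM in CD62L-high CMPs, a ratio of 227 with a 95% interval of 40.5 to 8989 (adjusted p = 1.1e-06). *Cd300lb*, an activating receptor, stood at 1.84, 0.139 and 0.297 CPM and 24.4, 19.3 and 14 CPM (log2 fold change 4.60 ± 0.52, adjusted p = 4.0e-06). *Cd22*, an inhibitory sialic acid-binding lectin best known from B cells, rose from 0.359 ± 0.373 to 6.41 ± 0.388 CPM (log2 fold change 4.08 ± 0.62, adjusted p = 9.8e-05), and the inhibitory receptor *Pirb* from 0.176 ± 0.304 to 5.16 ± 2.41 CPM (log2 fold change 4.73 ± 0.85, adjusted p = 4.9e-04). The lower members of the list included *Slamf1*, which encodes the stem cell marker CD150. It stood at 20.8, 15.8 and 14.5 CPM and 0.843, 0 and 0 CPM (log2 fold change -6.05 ± 0.69, adjusted p = 4.8e-06). *Treml1*, a receptor of platelet granules, stood at 7.77, 13.5 and 5.79 CPM and 0.337, 0.0674 and 0 CPM (log2 fold change -6.08 ± 0.74, adjusted p = 9.8e-06). *Ms4a2*, the beta chain of the IgE receptor, stood at 70.1, 61.3 and 54.3 CPM and 0.253, 1.75 and 1.05 CPM (log2 fold change -5.85 ± 0.32, adjusted p = 1.0e-09), and *Siglecf*, a lectin of eosinophils, at 32.3, 38.5 and 38.3 CPM and 4.81, 4.18 and 2.43 CPM (log2 fold change -3.26 ± 0.25, adjusted p = 5.2e-08). The last pair belongs to the basophil, mast cell and eosinophil genes whose summed levels are given above.

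**Figure D2:**
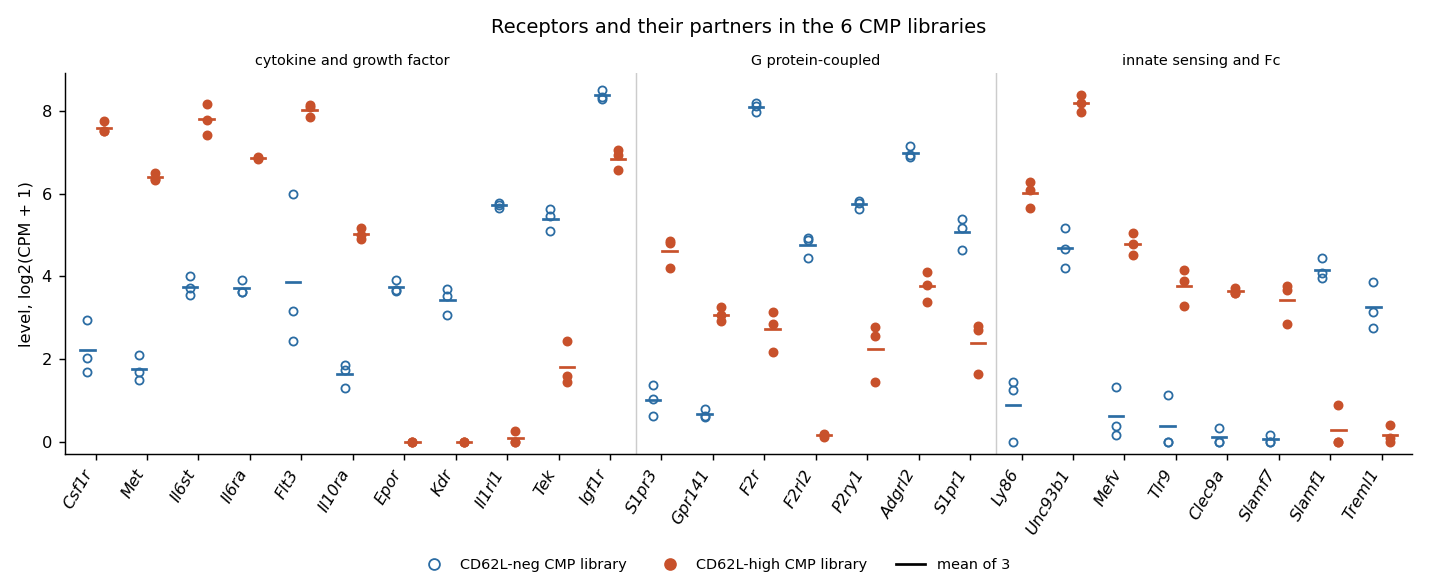
Points give log2(CPM + 1) of receptors and partner proteins in each CMP library, open for CD62L-neg and filled for CD62L-high, with a line at the mean of 3. *Epor* and *Kdr* lie at 0 in the CD62L-high libraries, and for *Flt3* the CD62L-neg library that lies nearest to the CD62L-high ones is replicate 1.

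Signalling pathways downstream of these receptors held fewer calls. Of 36 tested TGF-beta, activin and BMP genes, 5 were called higher and 4 lower, with 3 higher without CD62L-high replicate 2. The co-receptor *Tgfbr3*, or betaglycan, stood at 123, 142 and 156 CPM in CD62L-neg CMPs and 1.85, 1.28 and 2.37 CPM in CD62L-high CMPs (log2 fold change -6.25 ± 0.20, adjusted p = 2.3e-12). *Ltbp1*, which holds TGF-beta in its latent form, stood at 19, 20.7 and 23.1 CPM and had no count in CD62L-high CMPs, at least 291-fold lower (adjusted p = 9.8e-09). *Tgfbr2*, the ligand-binding receptor, fell from 75 ± 6.61 to 33.9 ± 5.5 CPM (log2 fold change -1.15 ± 0.15, adjusted p = 1.4e-05). On the other side, *Acvrl1*, the BMP9 receptor ALK1, was read in no CD62L-neg library and stood at 4.22, 3.91 and 5.91 CPM, at least 33.9-fold higher (adjusted p = 4.2e-05). *Id1* and *Id2*, targets of BMP signals that encode inhibitors of E proteins, rose from 0.742 ± 0.202 to 8.52 ± 0.527 CPM (log2 fold change 3.50 ± 0.45, adjusted p = 1.8e-05) and from 1.35 ± 1.14 to 23.9 ± 6.24 CPM (log2 fold change 4.11 ± 0.42, adjusted p = 1.2e-06).

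In the Notch pathway 3 of 27 genes were called higher and 2 lower, the latter 1 without CD62L-neg replicate 3. The receptor *Notch1* stood at 65.2, 36 and 17.2 CPM and 334, 244 and 222 CPM (log2 fold change 2.75 ± 0.30, adjusted p = 3.4e-06), and *Dtx4*, a ubiquitin ligase of the pathway, at 10.8, 8.75 and 7.57 CPM and 100.5, 96.1 and 68.7 CPM (log2 fold change 3.28 ± 0.19, adjusted p = 2.1e-09). Both were separate between the fractions. *Hes6*, of the HES family of repressors, rose from 17 ± 4.43 to 41.9 ± 8.5 CPM (log2 fold change 1.29 ± 0.21, adjusted p = 1.6e-04). Of 38 Wnt and Hippo genes 2 were called in each direction, with 1 higher without CD62L-neg replicate 2, which is no more than the share over all genes. Among the kinases of that list *Lats2* rose from 18.1 ± 3.65 to 42.3 ± 4.08 CPM (log2 fold change 1.22 ± 0.18, adjusted p = 7.0e-05). Guidance ligands and receptors, first known from growing axons and also used by blood cells, were called higher in 7 and lower in 8 of 26. *Plxnc1*, a receptor of semaphorin 7A, stood at 257, 309.6 and 316 CPM and 43.3, 53.6 and 49.5 CPM (log2 fold change -2.59 ± 0.13, adjusted p = 3.2e-10). The semaphorin and VEGF co-receptor *Nrp1* stood at 1.98, 1.39 and 0.148 CPM and 42.2, 41.2 and 44.8 CPM (log2 fold change 5.14 ± 0.35, adjusted p = 1.3e-08). The ephrin receptors *Ephb2* (2.06 ± 1.57 to 20.8 ± 2.02 CPM, log2 fold change 3.31 ± 0.40, adjusted p = 9.4e-06) and *Epha2* (0.31 ± 0.422 to 6.42 ± 2.21 CPM, log2 fold change 4.27 ± 0.72, adjusted p = 2.7e-04) rose, whereas *Ephb6*, which lacks kinase activity, fell (7.29 ± 2.44 to 1.94 ± 0.866 CPM, log2 fold change -1.90 ± 0.47, adjusted p = 0.0059).

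Kinase pathways shared by most receptors differed in their shares of calls, against 6.51% higher and 7.47% lower over all genes. The shares were 5.71% and 11.4% for JAK-STAT genes, 8.62% and 12.1% for RAS-MAPK genes, and 21.6% and 16.2% for SRC, SYK and TEC genes. Of 35 JAK-STAT genes 2 were called higher and 4 lower, the latter 2 without CD62L-neg replicate 1 or CD62L-high replicate 3. *Stat5a*, which acts downstream of erythropoietin and other cytokines, stood at 173, 145 and 177 CPM and 65.3, 64.6 and 79.4 CPM (log2 fold change -1.24 ± 0.13, adjusted p = 1.4e-06). *Cish*, a STAT5 target and feedback inhibitor, fell from 10 ± 2.45 to 3.87 ± 0.39 CPM (log2 fold change -1.37 ± 0.34, adjusted p = 0.0058), but was not called in the fit of all 21 libraries. The adaptors *Sh2b2* and *Sh2b3*, the latter also called LNK, rose from 8.24 ± 1.76 to 47.4 ± 2.08 CPM (log2 fold change 2.52 ± 0.19, adjusted p = 4.7e-08) and from 29.3 ± 8.38 to 89.2 ± 16.7 CPM (log2 fold change 1.60 ± 0.19, adjusted p = 6.5e-06). In the RAS-MAPK pathway 5 of 58 genes were called higher and 7 lower. *Rasa4*, which inactivates RAS in response to calcium, stood at 14.2, 6.25 and 4.9 CPM and 169, 146 and 134 CPM (log2 fold change 4.13 ± 0.26, adjusted p = 6.0e-09). The MAP kinase phosphatase *Dusp1*, an immediate early gene, stood at 507, 588 and 478 CPM and 147, 150.1 and 169 CPM (log2 fold change -1.75 ± 0.11, adjusted p = 8.1e-09), and *Dusp16*, of the same family, fell from 25 ± 9.86 to 6.48 ± 1.62 CPM (log2 fold change -1.95 ± 0.30, adjusted p = 9.5e-05). Of 37 SRC, SYK and TEC kinases and adaptors, 8 were higher and 6 lower, or 3 lower in the fit of all 21 libraries. *Lat*, an adaptor of platelets, mast cells and T cells, fell from 29.2 ± 3.23 to 2.57 ± 1.37 CPM (log2 fold change -3.53 ± 0.31, adjusted p = 2.7e-07). The adaptors *Themis2*, *Dok3* and *Pstpip1* rose by 2.45 ± 0.18, 2.17 ± 0.27 and 1.90 ± 0.17 on the log2 scale.

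The PI3K and AKT pathway held 7 higher and 4 lower genes of 46. The regulatory subunits of PI3K gamma, the form that G protein-coupled receptors activate, were both higher. *Pik3r5*, which encodes p101, stood at 3.43, 5.28 and 3.26 CPM and 22.1, 19.8 and 21.4 CPM (log2 fold change 2.40 ± 0.27, adjusted p = 4.0e-06), and *Pik3r6*, which encodes p84, at 0, 0 and 0.594 CPM and 12.5, 8.43 and 9.92 CPM (log2 fold change 5.69 ± 0.69, adjusted p = 9.6e-06). *Pik3r6* was close to absent in CD62L-neg CMPs and *Pik3r5* was not. *Trib1* and *Trib2*, pseudokinases that bind C/EBP alpha and AKT, moved in opposite directions. *Trib1* stood at 15.5, 21.8 and 9.94 CPM and 55.4, 78.3 and 72.7 CPM (log2 fold change 2.12 ± 0.22, adjusted p = 1.8e-06), and *Trib2* at 72.9, 93.6 and 97.2 CPM and 0.0843, 0.135 and 0.131 CPM (log2 fold change -9.39 ± 0.28, adjusted p = 1.9e-12). *Ddit4*, an inhibitor of mTORC1, fell from 25.7 ± 2.61 to 8.39 ± 1.88 CPM (log2 fold change -1.62 ± 0.23, adjusted p = 4.2e-05), and *Inpp4b*, a phosphoinositide phosphatase, from 15.8 ± 2.13 to 2.49 ± 1.01 CPM (log2 fold change -2.67 ± 0.35, adjusted p = 2.3e-05).

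Calcium and cyclic nucleotide signalling was called lower in 16 and higher in 3 of 68 genes, or in 6 higher without CD62L-neg replicate 1. The lower genes included the parts of the cyclic GMP pathway by which nitric oxide acts on platelets and smooth muscle. Both subunits of soluble guanylate cyclase, which makes cyclic GMP, were lower. *Gucy1a1* stood at 11.3, 31.5 and 34.4 CPM and 1.35, 0.337 and 0.854 CPM (log2 fold change -4.95 ± 0.48, adjusted p = 6.9e-07), and *Gucy1b1* at 6.06, 5.42 and 14.8 CPM and 0.422, 0.674 and 0.329 CPM (log2 fold change -4.17 ± 0.57, adjusted p = 3.6e-05). The kinase that cyclic GMP activates, *Prkg1*, stood at 32.8, 25.4 and 42.7 CPM and 4.89, 1.69 and 1.31 CPM (log2 fold change -3.72 ± 0.38, adjusted p = 1.3e-06). Its substrate *Mrvi1*, also called IRAG, which restrains calcium release, fell from 14.4 ± 1.72 to 1.11 ± 0.136 CPM (log2 fold change -3.69 ± 0.36, adjusted p = 7.2e-07). The phosphodiesterases that break the messengers down were lower too. *Pde5a*, specific for cyclic GMP, stood at 54.3, 66.4 and 55.5 CPM and 3.37, 1.62 and 3.09 CPM (log2 fold change -4.45 ± 0.24, adjusted p = 7.9e-10), and *Pde10a* at 14.8, 26.5 and 22.1 CPM and 0.253, 0.337 and 0 CPM (log2 fold change -6.70 ± 0.52, adjusted p = 6.2e-08). *Adcy6*, an adenylate cyclase, fell from 93.8 ± 14.1 to 11.1 ± 2.12 CPM (log2 fold change -3.08 ± 0.17, adjusted p = 1.4e-09). The rises in the list were smaller, in *Prkcd* (1.19 ± 0.12, adjusted p = 7.9e-07), *Camk1d* (1.42 ± 0.23, adjusted p = 1.6e-04) and *Nfatc2* (1.72 ± 0.23, adjusted p = 3.2e-05).

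Of 43 NF-kB pathway genes, 7 were called higher and 6 lower, the latter 2 without CD62L-neg replicate 2, 3 without CD62L-neg replicate 3 and 3 without CD62L-high replicate 3. The lower genes included feedback inhibitors that NF-kB itself induces. *Tnfaip3*, which encodes A20, stood at 349, 405 and 375 CPM and 61, 57.9 and 57.7 CPM (log2 fold change -2.68 ± 0.11, adjusted p = 4.5e-11), and *Nfkbia*, which encodes I-kappa-B alpha, at 206, 238 and 172 CPM and 67.6, 61.3 and 69.5 CPM (log2 fold change -1.63 ± 0.13, adjusted p = 8.1e-08). Higher was the scaffold *Card9*, used by C-type lectins, which stood at 23.5, 13.3 and 14.7 CPM and 60.7, 60.6 and 66.4 CPM (log2 fold change 1.86 ± 0.19, adjusted p = 1.3e-06).

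Among metabolic genes, isoenzymes of the same step moved apart in several families. In glycolysis and the pentose phosphate pathway 10 of 57 genes were called higher and 5 lower, and the hexokinases, which commit glucose to the cell, moved apart. *Hk1* stood at 379, 460.4 and 463 CPM in CD62L-neg CMPs and 127, 128 and 117 CPM in CD62L-high CMPs (log2 fold change -1.81 ± 0.11, adjusted p = 5.7e-09). *Hk3* stood at 33.5, 22.5 and 14.4 CPM and 209.6, 233 and 194 CPM (log2 fold change 3.17 ± 0.21, adjusted p = 1.1e-08), with CD62L-neg replicate 1 the highest of its fraction. *Hk2* was at a log2 fold change of 0.82 ± 0.12 (adjusted p = 4.2e-05), short of the fold threshold. Per kilobase of exons, *Hk1* made up 74.3% ± 5.18 of the 3 hexokinases in CD62L-neg CMPs and 15.9% ± 0.657 in CD62L-high CMPs, and *Hk3* 9.42% ± 4.23 and 62.7% ± 0.981 (SD, n = 3). The pyruvate kinase genes also moved apart. *Pkm* rose from 286 ± 21.6 to 600.4 ± 19.8 CPM (log2 fold change 1.07 ± 0.10, adjusted p = 6.2e-07), and *Pklr*, the red cell and liver form, fell from 4.39 ± 0.606 to 0.212 ± 0.262 CPM (log2 fold change -4.39 ± 0.81, adjusted p = 5.8e-04). Among other steps *Pgam1*, phosphoglycerate mutase, rose from 59.1 ± 5.75 to 189 ± 4.36 CPM (log2 fold change 1.67 ± 0.12, adjusted p = 1.9e-08), and *Tigar*, which lowers glycolytic flux, from 1.59 ± 1.14 to 10.5 ± 1.65 CPM (log2 fold change 2.70 ± 0.45, adjusted p = 2.2e-04). Glucose carriers differed, with *Slc2a6* up from 0.695 ± 0.124 to 10.9 ± 2.55 CPM (log2 fold change 3.94 ± 0.44, adjusted p = 3.6e-06) and *Slc2a3* down from 59.4 ± 3.84 to 26.6 ± 4.73 CPM (log2 fold change -1.16 ± 0.15, adjusted p = 2.6e-05). Of 34 genes of the tricarboxylic acid cycle and pyruvate metabolism, 1 was called in each direction, *Idh1* higher (log2 fold change 1.01 ± 0.16, adjusted p = 1.1e-04) and *Acod1*, the enzyme that makes itaconate, lower (log2 fold change -5.84 ± 0.94, adjusted p = 1.7e-04). *Idh1*, isocitrate dehydrogenase, was not called with libraries thinned, with upper quartile normalization, or without CD62L-neg replicate 2, CD62L-neg replicate 3 or CD62L-high replicate 1, and 2 genes were lower without CD62L-neg replicate 1.

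**Figure D3:**
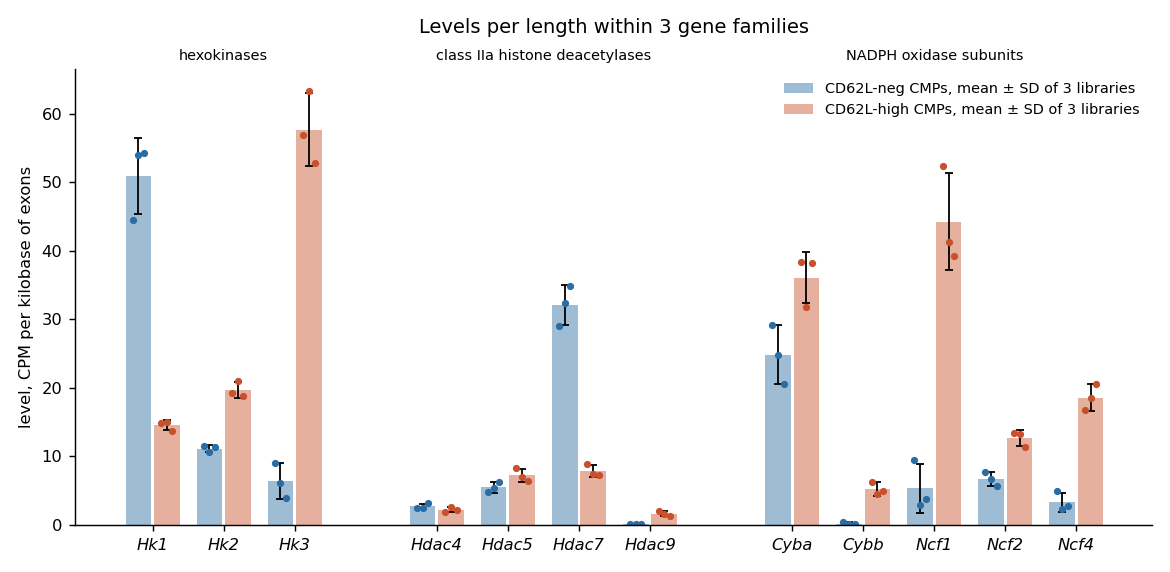
Bars give the mean CPM per kilobase of exons ± SD of 3 libraries for hexokinases, class IIa histone deacetylases and NADPH oxidase subunits, and points the libraries. *Hk1* leads the hexokinases in CD62L-neg CMPs and *Hk3* in CD62L-high CMPs, and *Hdac7* is higher in CD62L-neg CMPs in every library.

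Iron and heme genes were called higher in 3 and lower in 5 of 35. *Tfr2*, a sensor of iron-loaded transferrin, stood at 77.5, 90.3 and 83.1 CPM and 7.33, 10.7 and 15.3 CPM (log2 fold change -2.90 ± 0.21, adjusted p = 2.4e-08), and *Slc40a1*, which encodes the iron exporter ferroportin, fell from 9.27 ± 3.72 to 0.358 ± 0.274 CPM (log2 fold change -4.71 ± 0.59, adjusted p = 1.2e-05). *Blvrb*, which reduces biliverdin, fell from 22.9 ± 1.78 to 2.33 ± 0.313 CPM (log2 fold change -3.29 ± 0.27, adjusted p = 1.0e-07). The first enzyme of heme synthesis outside the erythroid lineage, *Alas1*, was higher. It stood at 41.4, 53.2 and 39.2 CPM and 176, 149 and 151 CPM (log2 fold change 1.83 ± 0.14, adjusted p = 4.7e-08). The transferrin receptor *Tfrc* was at a log2 fold change of 0.78 ± 0.13 (adjusted p = 2.0e-04), short of the fold threshold.

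Lipid genes were called at shares near those of all genes, with 3 higher and 4 lower of 43 cholesterol genes and 3 higher and 6 lower of 65 fatty acid genes. A few changed strongly. *Apoe*, the carrier of lipids out of cells, stood at 801, 820.5 and 799 CPM and 33.5, 37 and 47.1 CPM (log2 fold change -4.36 ± 0.14, adjusted p = 2.1e-12). The enzymes that store cholesterol as esters moved apart, with *Soat1* from 13.7 ± 2.07 to 59.5 ± 4.8 CPM (log2 fold change 2.12 ± 0.16, adjusted p = 6.3e-08) and *Soat2* from 5.99 ± 1.43 to 0.593 ± 0.298 CPM (log2 fold change -3.33 ± 0.58, adjusted p = 3.4e-04). *Lrp1*, an endocytic receptor of apolipoprotein E, rose from 4.09 ± 2.8 to 37.6 ± 4.82 CPM (log2 fold change 3.19 ± 0.34, adjusted p = 2.5e-06). *Lpin2*, a phosphatidate phosphatase, fell from 120.4 ± 15.3 to 36.6 ± 3.21 CPM (log2 fold change -1.72 ± 0.13, adjusted p = 6.3e-08), and *Acss2*, which activates acetate, from 36.8 ± 2.09 to 5.46 ± 3.66 CPM (log2 fold change -2.73 ± 0.32, adjusted p = 7.1e-06).

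Of 19 genes of eicosanoid synthesis, 4 were higher and 5 lower, or 2 higher under upper quartile normalization. The enzymes of the platelet route to thromboxane were lower. *Ptgs1*, which encodes cyclooxygenase 1, stood at 32.5, 36.8 and 33.7 CPM and 2.53, 5.94 and 2.3 CPM (log2 fold change -3.24 ± 0.30, adjusted p = 4.7e-07), and *Tbxas1*, thromboxane synthase, fell from 52.8 ± 10.9 to 16.6 ± 1.05 CPM (log2 fold change -1.67 ± 0.17, adjusted p = 1.6e-06). The leukotriene route was split between its first and last enzymes. *Alox5*, the 5-lipoxygenase that starts it, stood at 14.1, 17.2 and 13.2 CPM and 0.759, 2.09 and 1.64 CPM (log2 fold change -3.28 ± 0.38, adjusted p = 6.2e-06). *Lta4h*, which makes leukotriene B4, stood at 85.8, 70 and 91.7 CPM and 237, 214 and 211 CPM (log2 fold change 1.42 ± 0.12, adjusted p = 2.1e-07). For both enzymes, the fractions did not overlap.

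In amino acid metabolism 6 of 50 genes were higher and 4 lower, and in nucleotide and one-carbon metabolism 4 and 4 of 63. *Phgdh*, the first enzyme of serine synthesis, stood at 53.9, 61.9 and 60.7 CPM and 169, 171 and 186 CPM (log2 fold change 1.57 ± 0.12, adjusted p = 3.7e-08). *Kmo*, an enzyme of tryptophan breakdown, rose from 0.398 ± 0.573 to 13.8 ± 3.5 CPM (log2 fold change 5.02 ± 0.60, adjusted p = 7.6e-06), and *Bcat1*, which transfers amino groups of branched-chain amino acids, from 0.176 ± 0.304 to 5.05 ± 1.82 CPM (log2 fold change 4.69 ± 0.85, adjusted p = 4.7e-04). *Glul*, glutamine synthetase, stood at 214, 223 and 228 CPM and 69.8, 99.6 and 91.9 CPM (log2 fold change -1.35 ± 0.13, adjusted p = 7.0e-07). *Hdc*, which makes histamine, fell from 66.7 ± 11.2 to 20.9 ± 4.94 CPM (log2 fold change -1.67 ± 0.19, adjusted p = 3.4e-06) and is also one of the basophil and mast cell genes above. Of the purine enzymes, *Xdh*, xanthine dehydrogenase, rose from 0.688 ± 0.329 to 19.2 ± 3.49 CPM (log2 fold change 4.76 ± 0.38, adjusted p = 8.9e-08) and the adenylosuccinate synthase gene *Adssl1* from 21.3 ± 0.422 to 70.3 ± 4.66 CPM (log2 fold change 1.72 ± 0.14, adjusted p = 8.4e-08), whereas the nucleotidase *Nt5c3* fell from 70.8 ± 12.8 to 20 ± 1.77 CPM (log2 fold change -1.82 ± 0.16, adjusted p = 2.1e-07).

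Redox genes were called higher in 9 and lower in 7 of 57. The higher genes held subunits of the phagocyte NADPH oxidase, which makes superoxide. *Cybb*, its catalytic subunit gp91phox, stood at 2.24, 0.556 and 0.445 CPM and 36.8, 26.1 and 28.5 CPM (log2 fold change 4.76 ± 0.39, adjusted p = 1.1e-07). *Ncf1*, which encodes p47phox, stood at 34.6, 10.6 and 13.7 CPM and 192, 151 and 143 CPM (log2 fold change 3.03 ± 0.29, adjusted p = 7.7e-07), with CD62L-neg replicate 1 the highest of its fraction. Per kilobase of exons, *Cybb* was the lowest of the subunits in both fractions, at 0.186 ± 0.173 and 5.24 ± 0.964 CPM, and *Cyba* was at 24.8 ± 4.3 and 36.1 ± 3.74 CPM. Myeloperoxidase, *Mpo*, stood at 1707, 1006 and 825 CPM and 8046, 7070.1 and 6863 CPM (log2 fold change 2.63 ± 0.20, adjusted p = 4.8e-08), and the glutathione transferase *Mgst1* rose from 1 ± 0.515 to 9.4 ± 2.3 CPM (log2 fold change 3.19 ± 0.46, adjusted p = 5.6e-05). Lower were targets of the NRF2 response and a thioredoxin inhibitor. *Nqo1*, a quinone reductase, stood at 7.64, 9.72 and 4.15 CPM and 0.506, 0.202 and 0.197 CPM (log2 fold change -4.57 ± 0.62, adjusted p = 3.3e-05). *Gclm*, a subunit of the enzyme that starts glutathione synthesis, stood at 81.3, 81.4 and 90.8 CPM and 21.7, 25.8 and 27.6 CPM (log2 fold change -1.75 ± 0.14, adjusted p = 7.4e-08). *Txnip* stood at 247, 217 and 248 CPM and 68.3, 82.5 and 67.4 CPM (log2 fold change -1.71 ± 0.12, adjusted p = 2.1e-08). Among 25 retinoid and aldehyde genes 3 were higher and 2 lower, and *Aldh1a1*, a retinaldehyde dehydrogenase, stood at 12.1, 12.2 and 13.2 CPM and 0.169, 0.135 and 0.0657 CPM (log2 fold change -6.57 ± 0.51, adjusted p = 6.6e-08).

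Lysosomal genes were the metabolic list with the highest share of rises, 23 of 74 against 4 falls. *Psap*, which encodes the precursor of the saposins, stood at 145, 115 and 97.3 CPM and 576, 566 and 567 CPM (log2 fold change 2.26 ± 0.13, adjusted p = 2.6e-09). *Ctss*, the cathepsin that cleaves the invariant chain, stood at 2.5, 0.694 and 0.445 CPM and 82.5, 59.7 and 60.9 CPM (log2 fold change 5.75 ± 0.33, adjusted p = 2.1e-09). *Lgmn*, asparaginyl endopeptidase, had 3 counts in CD62L-neg CMPs and reached 6.66 ± 2.28 CPM, a ratio of 48.5 with a 95% interval of 16.4 to 236 (adjusted p = 2.3e-05). The falls included *Cd63*, a tetraspanin of granules, from 33.6 ± 7.29 to 7.02 ± 2.04 CPM (log2 fold change -2.25 ± 0.25, adjusted p = 3.1e-06), and *Ctse*, an aspartic protease, from 32.7 ± 6.38 to 8.74 ± 2.73 CPM (log2 fold change -1.91 ± 0.25, adjusted p = 1.9e-05).

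Glycosyltransferases and selectin ligands were called higher in 10 and lower in 9 of 50. The list includes the antigen of the sort, so its count is in part set by the sort. *Selplg*, the main ligand of selectins on leukocytes, rose from 79.1 ± 17.5 to 234 ± 10.5 CPM (log2 fold change 1.56 ± 0.14, adjusted p = 2.9e-07). *Fut7*, the fucosyltransferase that finishes selectin ligands, was at a log2 fold change of 0.29 ± 0.17 (adjusted p = 0.24). The enzymes that add chains of sialic acid moved apart. *St8sia4* stood at 51.4, 23.5 and 23.3 CPM and 176, 177 and 176 CPM (log2 fold change 2.43 ± 0.23, adjusted p = 4.7e-07), and *St8sia6* at 73.5, 52.2 and 65 CPM and 0.169, 0.809 and 0.854 CPM (log2 fold change -6.61 ± 0.30, adjusted p = 1.1e-10). Those called lower included the O-glycan enzymes *C1galt1* at -1.83 ± 0.13 (adjusted p = 2.7e-08), *St3gal1* at -1.71 ± 0.15 (adjusted p = 3.4e-07) and *Galnt6* at -1.21 ± 0.12 (adjusted p = 6.9e-07). *B4galt4*, a galactosyltransferase, rose from 4.3 ± 3.35 to 40.4 ± 11.4 CPM (log2 fold change 3.20 ± 0.36, adjusted p = 4.1e-06). Of 49 ion channel genes, 9 were higher and 6 lower. *Trpc6*, a calcium channel of platelets, stood at 19.5, 22.4 and 23.4 CPM and 0, 0 and 0.789 CPM (log2 fold change -6.21 ± 0.61, adjusted p = 8.4e-07). *Kcnc1*, a voltage-gated potassium channel, stood at 10.9, 20.6 and 20.3 CPM and 0, 0 and 0.263 CPM (log2 fold change -7.34 ± 0.63, adjusted p = 2.0e-07), whereas the tandem-pore channel *Kcnk12* stood at 5.53, 2.92 and 6.53 CPM and 41.4, 34.5 and 37.5 CPM (log2 fold change 2.92 ± 0.25, adjusted p = 1.8e-07) and the inward rectifier *Kcnj2* rose from 0.266 ± 0.347 to 8.97 ± 0.613 CPM (log2 fold change 4.96 ± 0.63, adjusted p = 1.4e-05). Potassium channels thus were found on both sides.

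The lists of transcription factors differed in direction. Of 35 erythroid, megakaryocytic and mast cell factors 16 were called lower and 3 higher, of 46 stem and multipotent progenitor factors 15 lower and 3 higher, and of 49 granulocytic, monocytic and dendritic factors 19 higher and 3 lower, the latter 1 without CD62L-neg replicate 2. The largest rise in CPM was in *Irf8*, which directs monocyte and dendritic cell fates. It stood at 26.6, 8.06 and 7.42 CPM and 788, 634 and 634 CPM (log2 fold change 5.59 ± 0.33, adjusted p = 2.9e-09), and CD62L-neg replicate 1 was above the other CD62L-neg libraries. *Irf5*, a factor of Toll-like receptor responses, stood at 5.8, 3.06 and 3.71 CPM and 46.5, 48.2 and 41.5 CPM (log2 fold change 3.43 ± 0.23, adjusted p = 1.2e-08). *Spi1*, which encodes PU.1, rose from 38.5 ± 17 to 129.8 ± 5.62 CPM (log2 fold change 1.75 ± 0.21, adjusted p = 8.6e-06) and the C/EBP delta gene *Cebpd* from 3.67 ± 1.51 to 32.6 ± 1.36 CPM (log2 fold change 3.13 ± 0.26, adjusted p = 1.3e-07). *Satb1*, an organiser of chromatin in lymphoid progenitors, stood at 55.3, 25.8 and 25.1 CPM and 191, 181 and 177 CPM (log2 fold change 2.36 ± 0.22, adjusted p = 5.8e-07). *Nfil3*, needed for innate lymphoid cells, rose from 2.15 ± 0.601 to 23.2 ± 4.09 CPM (log2 fold change 3.43 ± 0.30, adjusted p = 2.3e-07). These 2 belong to lists of stem and lymphoid factors, and of the latter 6 of 23 were higher and 4 lower. Among relatives of the mast cell factor MITF, *Mitf* itself rose from 4.91 ± 1.06 to 11.4 ± 0.698 CPM (log2 fold change 1.22 ± 0.30, adjusted p = 0.0064) and *Tfec* from 3.76 ± 2.15 to 24 ± 0.213 CPM (log2 fold change 2.66 ± 0.32, adjusted p = 8.9e-06), against the direction of their list.

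*Gata1*, the master factor of erythroid cells, stood at 66.9, 81.7 and 64.8 CPM and 0.253, 0.27 and 0.723 CPM (log2 fold change -7.34 ± 0.28, adjusted p = 1.2e-11), and the erythroid factor *Klf1* at 38.7, 40.1 and 48.2 CPM and 0, 0.0674 and 0.46 CPM (log2 fold change -7.72 ± 0.41, adjusted p = 9.3e-10). *Gata2*, a factor of stem and mast cells, stood at 631, 663 and 672 CPM and 29.6, 44.4 and 43.2 CPM (log2 fold change -4.06 ± 0.15, adjusted p = 9.5e-12), and its partner *Zfpm1*, or FOG-1, at 592, 811 and 787 CPM and 30, 40.1 and 29.8 CPM (log2 fold change -4.45 ± 0.16, adjusted p = 9.1e-12). No CD62L-high library came near a CD62L-neg library for these genes. Per kilobase of exons, *Gata2* was the first of the GATA factors in both fractions, at 79.9% ± 1.75 and 95.1% ± 2.38 of *Gata1*, *Gata2* and *Gata3* together. *Mycn*, a MYC family member of stem cells, stood at 66.3, 73.2 and 82.2 CPM and 3.79, 3.57 and 2.1 CPM (log2 fold change -4.56 ± 0.21, adjusted p = 1.5e-10), whereas *Myc* was at a log2 fold change of 0.13 ± 0.10 (adjusted p = 0.39). The homeobox factor gene *Meis1* stood at 171, 225 and 225 CPM and 36.9, 52.3 and 53.4 CPM (log2 fold change -2.12 ± 0.15, adjusted p = 3.2e-08). Several factors of the highest level were not called, which does not show them to be equal. *Myb* was at -0.53 ± 0.10 (adjusted p = 5.2e-04), *Lmo2* at -0.34 ± 0.11 (adjusted p = 0.032), *Runx1* at -0.11 ± 0.11 (adjusted p = 0.50), *Mef2c* at -0.18 ± 0.12 (adjusted p = 0.30) and *Ikzf1* at 0.25 ± 0.10 (adjusted p = 0.072).

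Several factors of the AP-1 and EGR families were lower in CD62L-high CMPs. Of 53 AP-1, ATF, EGR and nuclear receptor genes, 8 were called lower and 7 higher. *Jun* had the largest fall in CPM of all protein-coding genes, at 2330.2, 3266 and 2690.3 CPM and 649.8, 799.9 and 850.2 CPM (log2 fold change -1.85 ± 0.13, adjusted p = 2.9e-08). *Junb* stood at 254, 282 and 205 CPM and 61.5, 70.8 and 94.3 CPM (log2 fold change -1.71 ± 0.16, adjusted p = 3.9e-07), *Fosb* at 409, 521 and 439 CPM and 202, 177 and 176 CPM (log2 fold change -1.30 ± 0.12, adjusted p = 2.8e-07), and *Egr1* at 362, 516 and 440.4 CPM and 31.1, 65.3 and 64.4 CPM (log2 fold change -3.03 ± 0.22, adjusted p = 3.1e-08). *Maff*, a small MAF protein gene, fell from 19.3 ± 4.6 to 5.09 ± 2.28 CPM (log2 fold change -1.91 ± 0.33, adjusted p = 3.0e-04). Not every gene of this response moved: *Fos* stood at 625, 662 and 536 CPM and 687, 667 and 702 CPM, with a log2 fold change of 0.17 ± 0.10 (adjusted p = 0.25). *Atf4*, the factor of the integrated stress response, was at 0.21 ± 0.16 (adjusted p = 0.37). As background, many of these are immediate early genes, which cells induce quickly on stimulation or stress, as are *Dusp1*, *Tnfaip3* and *Nfkbia* above. Among nuclear receptors, *Esr1*, the estrogen receptor, rose from 6.65 ± 4.02 to 24.9 ± 1.39 CPM (log2 fold change 1.89 ± 0.33, adjusted p = 3.3e-04), and *Vdr*, the vitamin D receptor, from 5.91 ± 2.68 to 14.9 ± 2.52 CPM (log2 fold change 1.32 ± 0.32, adjusted p = 0.0052).

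**Figure D4:**
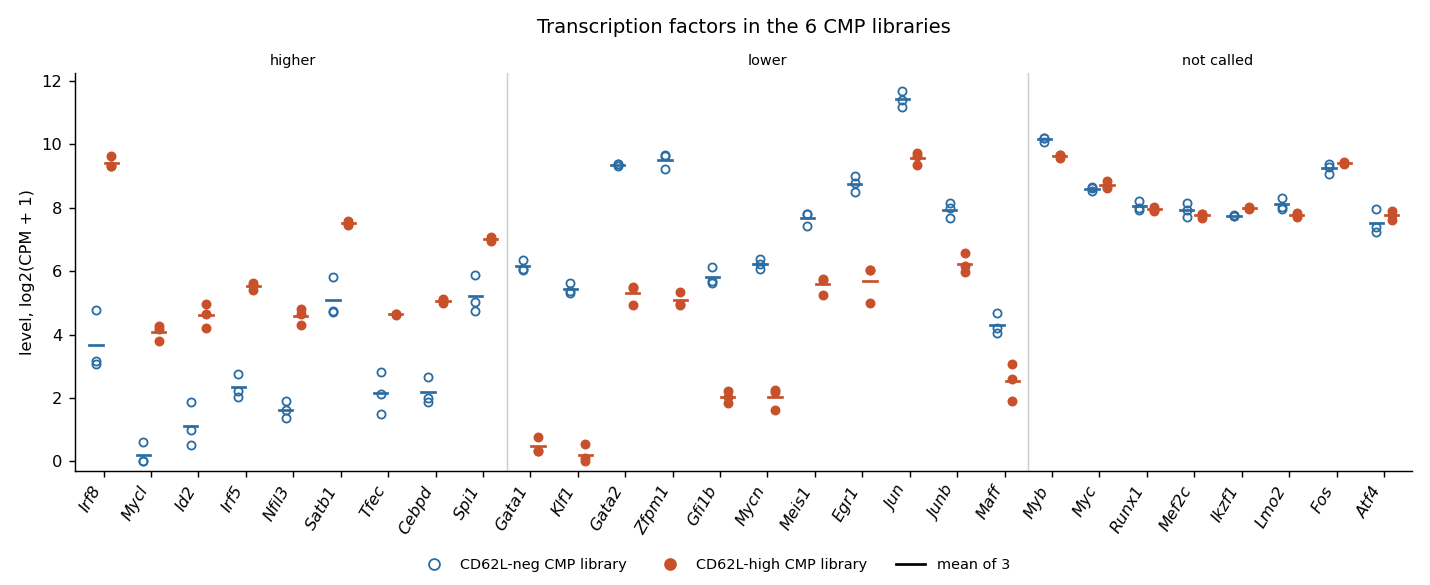
Points give log2(CPM + 1) of transcription factors in each CMP library, open for CD62L-neg and filled for CD62L-high, with a line at the mean of 3. *Jun* is the highest factor shown in the CD62L-neg libraries and is lower in all CD62L-high libraries, whereas *Fos* is not lower in any of them.

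Enzymes that modify DNA and histones were called least often with the genes of the tricarboxylic acid cycle. Of 107 tested, 3 were called higher and 4 lower, below the shares over all genes, and the latter were 2 without CD62L-neg replicate 3 or CD62L-high replicate 3. *Dnmt1* was at a log2 fold change of 0.06 ± 0.11 (adjusted p = 0.71), and *Chd4* at -0.13 ± 0.11 (adjusted p = 0.40). The class IIa histone deacetylases were an exception. *Hdac7* stood at 196, 218 and 235 CPM and 60.3, 50.2 and 49.3 CPM (log2 fold change -2.02 ± 0.12, adjusted p = 4.8e-09), and *Hdac9* at 2.77, 0.972 and 1.04 CPM and 30.1, 22.8 and 18.7 CPM (log2 fold change 3.87 ± 0.37, adjusted p = 5.8e-07). Per kilobase of exons, *Hdac7* made up 79.5% ± 0.963 of this class in CD62L-neg CMPs and 41.5% ± 1.31 in CD62L-high CMPs, and *Hdac5* 13.5% ± 0.62 and 38% ± 0.964 (SD, n = 3). *Kdm5b*, a histone H3 lysine 4 demethylase, fell from 174 ± 14.5 to 75.4 ± 7.63 CPM (log2 fold change -1.21 ± 0.12, adjusted p = 1.1e-06), and *Nsd2*, an H3 lysine 36 methyltransferase, rose from 128 ± 26.7 to 284 ± 6.85 CPM (log2 fold change 1.14 ± 0.13, adjusted p = 6.3e-06).

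The protein-coding genes with the largest differences in CPM included some of none of these pathways. *H2afy*, which encodes the histone variant macroH2A1, stood at 514, 323 and 303 CPM and 1786, 1817 and 1736 CPM (log2 fold change 2.23 ± 0.16, adjusted p = 2.9e-08), the largest rise after *Mpo*. *Emb*, which encodes embigin, a partner of monocarboxylate carriers, stood at 56.1, 22.8 and 17.2 CPM and 456, 389 and 415 CPM (log2 fold change 3.70 ± 0.29, adjusted p = 7.3e-08). The actin-bundling protein gene *Lcp1* rose from 123 ± 46.4 to 672 ± 19.6 CPM (log2 fold change 2.45 ± 0.19, adjusted p = 5.0e-08), and *Cd93*, a receptor of early blood and endothelial cells, from 168 ± 22.5 to 556 ± 77 CPM (log2 fold change 1.73 ± 0.13, adjusted p = 3.8e-08). *Cd34*, whose protein both fractions were gated on, stood at 150.1, 70.7 and 51.3 CPM and 419.6, 401 and 429 CPM (log2 fold change 2.20 ± 0.26, adjusted p = 7.0e-06). Falls of this size, other than in the factors above, were found in the integrin gene *Itga2b* of platelets, from 409.5 ± 35.4 to 9.37 ± 2.25 CPM (log2 fold change -5.44 ± 0.17, adjusted p = 2.0e-12), and in *Adgrg1*, an adhesion receptor of stem cells, from 950.3 ± 59.2 to 440.1 ± 71.4 CPM (log2 fold change -1.11 ± 0.12, adjusted p = 2.8e-06). The call of *Adgrg1* was lost without CD62L-high replicate 1.

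Sequences before the starts of genes are shown for 2 lower and 2 higher genes because GATA factors were lower and IRF factors higher along with them. Windows of 250 bases upstream of RefSeq starts (GRCm38.p6) were at hand for 9049 tested genes, and 6 motifs were searched on both strands. The GATA motif AGATAA was in the window of 11.3% of genes called lower, 8.13% of those called higher and 7.16% of all. The PU.1-type ETS motif GAGGAA was in 27.5%, 33.3% and 25.7%, and a pair of IRF half-sites (GAAA, any 2 bases, GAAA) in 3.92%, 5.37% and 3.22%. These motifs can overlap each other. The C/EBP motif TTGCNNAA was in 10.5%, 12.2% and 8.81%, the RUNX motif TGTGGT in 15.3%, 19.2% and 13%, and the AP-1 motif TGANTCA in 7.27%, 9.11% and 5.08%. Each of the 6 motifs was more frequent in both called sets than in all genes. The shares are descriptions with no test, and a match is not a bound site. The 4 genes were chosen after their values and sequences were seen. Capitals mark matches of the GATA, PU.1-type and IRF motifs on either strand, and each window reads 5′ to 3′ along the gene. *Epor* (chr9:21963577-21963826, minus strand) has 1 GATA match, 54 bases before the start. For *Il1rl1* the windows of 2 starts (the first chr1:40429320-40429569 and the second chr1:40439379-40439628, plus strand) have 1 GATA match each. *Cybb* (chrX:9469325-9469574, minus strand) has 3 IRF matches and 1 GATA match, and *Ctss* (chr3:95526536-95526785, plus strand) has 1 PU.1-type and 1 IRF match. Matches of the C/EBP, RUNX and AP-1 motifs are not in capitals. *Epor* has a RUNX match 166 bases before the start. *Il1rl1* has a C/EBP match 34 bases before its first and a RUNX match 6 bases before its second start. *Cybb* has an AP-1 match 139 and a RUNX match 103 bases before the start.
Epor: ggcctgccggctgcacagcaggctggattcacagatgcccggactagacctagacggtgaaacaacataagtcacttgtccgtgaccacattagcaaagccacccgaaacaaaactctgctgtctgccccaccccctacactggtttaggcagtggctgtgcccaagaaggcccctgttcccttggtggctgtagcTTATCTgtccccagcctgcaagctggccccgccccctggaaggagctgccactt
Il1rl1, first start: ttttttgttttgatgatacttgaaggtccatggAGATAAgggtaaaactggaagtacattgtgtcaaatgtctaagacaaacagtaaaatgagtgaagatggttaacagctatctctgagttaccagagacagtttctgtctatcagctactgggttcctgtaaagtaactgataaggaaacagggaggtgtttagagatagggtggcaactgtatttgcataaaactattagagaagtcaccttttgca
Il1rl1, second start: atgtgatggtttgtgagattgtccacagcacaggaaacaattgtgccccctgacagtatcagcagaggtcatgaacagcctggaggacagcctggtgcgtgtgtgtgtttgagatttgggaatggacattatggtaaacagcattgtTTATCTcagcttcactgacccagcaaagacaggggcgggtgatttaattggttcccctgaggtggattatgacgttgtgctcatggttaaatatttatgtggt
Cybb: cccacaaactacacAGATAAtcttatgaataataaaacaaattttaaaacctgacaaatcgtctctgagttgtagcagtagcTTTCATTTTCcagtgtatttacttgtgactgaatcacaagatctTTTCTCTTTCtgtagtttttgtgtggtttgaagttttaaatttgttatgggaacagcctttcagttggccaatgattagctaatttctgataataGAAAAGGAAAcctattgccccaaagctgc
Ctss: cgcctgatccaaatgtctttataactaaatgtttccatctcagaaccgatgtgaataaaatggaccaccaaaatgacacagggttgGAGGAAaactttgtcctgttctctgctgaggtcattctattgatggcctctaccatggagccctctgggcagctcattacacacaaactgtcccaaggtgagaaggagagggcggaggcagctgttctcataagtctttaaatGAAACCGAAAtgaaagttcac

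GMPs, the next stage of the granulocyte-monocyte path, had been sorted by CD62L as well, and the CD62L effect in CMPs was set against it in 1 fit of 12 libraries. The gates were unlike. The study divided CMPs by CD62L into negative, intermediate and high parts, but took only the lowest and highest ends of GMPs. A difference of gates and a difference of stage cannot be told apart in the interaction. The interaction, the CMP effect minus the GMP effect, passed an adjusted p of 0.05 in 1292 of 14168 genes (9.12%), 861 with a positive and 431 with a negative value. Of the 1794 genes called between the CMPs, 532 (29.7%) passed it. Between CD62L-high and CD62L-neg GMPs 1586 of 14168 genes (11.2%) were called at the same thresholds. The lists shared 787 genes, 43.9% of those called in CMPs and 49.6% of those called in GMPs, and 745 of them had the same direction. Of the rest, 30 were higher in CD62L-high CMPs and lower in CD62L-high GMPs, and 12 the other way. CD62L-high GMP replicate 1 stood apart, with 41.1% of its counts in 3 gene models (*Gm23935*, *Gm26917* and *Gm42418*). Their share was 28.8% to 31.7% in CD62L-neg and 23.6% to 24.9% in CD62L-high CMP libraries. Without CD62L-high GMP replicate 1, 1566 genes passed the interaction test. Levels in what follows are scaled over all 21 libraries, and so differ slightly from those above.

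For some of the genes above the effect was large at both stages. *Il6st* had a log2 fold change of 4.57 ± 0.24 between the GMPs and an interaction of -0.38 ± 0.31, adjusted p = 0.54. *Nrp1* had 5.92 ± 0.38 and -0.75 ± 0.58, adjusted p = 0.51, and *Irf8* 5.31 ± 0.36 and 0.32 ± 0.44, adjusted p = 0.74. These interactions missed the threshold, which does not show the effects to be equal. Others differed. *Csf1r* was at 3.86 ± 0.22 between the GMPs, with an interaction of 1.74 ± 0.32, adjusted p = 0.0017. *Hk3* was at 289 ± 14 CPM in CD62L-neg and 337 ± 21.2 CPM in CD62L-high GMPs, a log2 fold change of 0.22 ± 0.19, with an interaction of 2.99 ± 0.28, adjusted p = 2.3e-06. *Hdac7*, *Dtx4* and *Notch1* had interactions of -1.30 ± 0.31, adjusted p = 0.012, of 3.45 ± 0.25, adjusted p = 1.9e-07 and of 1.61 ± 0.42, adjusted p = 0.021. *Mpo* was at 20662 ± 761 CPM and 17583 ± 2801 CPM in the GMPs, a log2 fold change of -0.23 ± 0.20, with an interaction of 2.90 ± 0.28, adjusted p = 3.3e-06. *Plxnc1* changed sides, with 16.1 ± 1.93 CPM in CD62L-neg and 66.9 ± 4.27 CPM in CD62L-high GMPs (2.05 ± 0.15, interaction -4.61 ± 0.21, adjusted p = 4.2e-10). These genes were chosen for comparison after their values were seen.

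**Figure D5:**
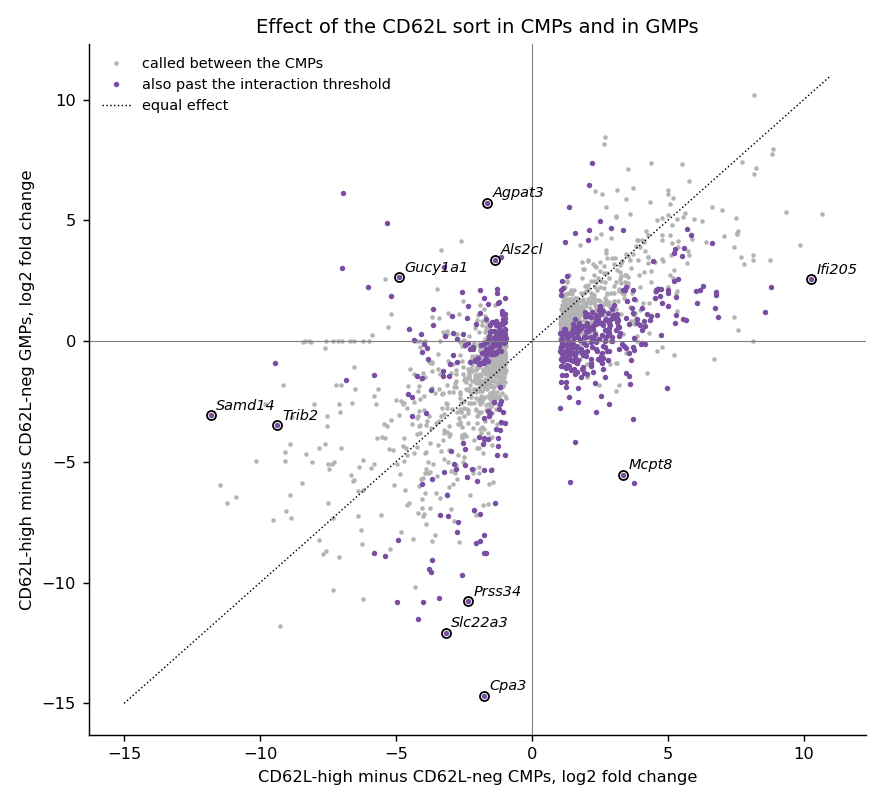
Each point is a gene called between the CMP fractions, with its log2 fold change in CMPs on the x axis and in GMPs on the y axis, and those past the interaction threshold are purple. Circles mark the 5 largest interactions each way among genes that reach a mean of 10 CPM, such as *Cpa3* and *Slc22a3* far below and *Agpat3* above the dotted line of equal effect.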

How the data were processed

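RNA of sorted mouse bone marrow progenitors was sequenced. The labels name a SMARTer stranded kit and the paper SMART-Seq v.4, and the strand setting of the counting is not given in the sources used here, so antisense and overlapping genes are uncertain. Per the submitters' processing notes, the authors used bcl2fastq, Trim Galore, HISAT2, mm10 and HTSeq, with no versions stated, and deposited raw counts of 47643 genes, 47224 of them found in the GENCODE annotation at hand. In R 4.3.3 with edgeR 4.0.16, genes were filtered with filterByExpr, scaled by TMM and compared by the quasi-likelihood F test without covariates, with Benjamini-Hochberg adjusted p. Standard errors come from the F statistic. The interaction fit joined the CD62L-high and CD62L-neg libraries of CMPs and GMPs, other groups being left out. Principal components used log2(CPM + 4). Methods were tested on simulated data.

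Members and the gene lists, 36 of pathways and 10 of other cells and antigens, were chosen with earlier results of these data known, from general knowledge. Genes named by rule are, per list and direction, up to 4 called genes with the largest fold changes, separate libraries and a mean of 5 CPM in the higher fraction, the 10 largest CPM differences each way, the 5 largest interactions each way at a mean of 10 CPM, marker genes, and the 5 highest uncalled factors and receptors. Some genes are not reported here. Outside the rule, and chosen after their values were seen, are *Acvrl1*, *Hk2*, *Spi1*, *Fosb*, *Igf1r*, *Mrvi1*, *Meis1*, *Tfrc*, *Adcy6*, *Il6ra*, *Csf3r*, *Irf5*, *Pkm*, *Fut7*, *Unc93b1*, *Pklr*, *Flt3*, *S1pr1*, *Selplg*, *Junb*, *Prkg1*, *Cnr2*, *Cebpd* and *Acod1*. Alternatives were DESeq2 1.42.0, RLE and upper quartile scaling, other filters, thinning, protein-coding genes only, a fit of all 21 libraries, glmTreat, no fold threshold, a replicate block and leaving out each library. Bulk CMP replicate 2 had 30.7% of its counts in protein-coding genes, and a fit of all groups without it was added after seeing the data. Replicate pairs differed by far more than counting noise.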

Additional observations from a re-analysis of the deposited data

Results flagged for a closer look

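For the 10 genes below the CD62L effect differed between CMPs and GMPs in the interaction test (CMP minus GMP, edgeR, adjusted p under 0.05). They were called between the CMP fractions and had the 5 largest interactions in each direction. Values of genes with a library group at 0 are fitted values that depend on the prior count and are no bounds. The cause was not tested for any of them, and the CD62L gates of CMPs and GMPs were unlike.

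Positive interactions were led by genes of basophils and mast cells. *Cpa3*, mast cell carboxypeptidase, stood at 56.2 ± 22.7 and 16.7 ± 5.45 CPM in the CD62L-neg and CD62L-high fractions of CMPs and at 267 ± 71.2 CPM in CD62L-neg GMPs, and CD62L-high GMPs had no count (interaction 12.93 ± 0.83, adjusted p = 1.5e-07). *Slc22a3*, a carrier of organic cations such as histamine, stood at 198 ± 8.5, 22 ± 9.57 and 43.7 ± 5.63 CPM in the same groups and also had no count in CD62L-high GMPs (8.90 ± 0.88, adjusted p = 9.1e-06). The basophil protease *Mcpt8* was higher in CD62L-high than in CD62L-neg CMPs, at 3.18 ± 1.24 and 0.284 ± 0.387 CPM, and stood at 119 ± 37 and 2.56 ± 0.545 CPM in CD62L-neg and CD62L-high GMPs (8.89 ± 0.62, adjusted p = 1.1e-07). *Prss34*, another basophil protease, stood at 1.19 ± 0.0372, 0.216 ± 0.199, 233 ± 63.7 and 0.119 ± 0.112 CPM in the same order of groups with CD62L-high GMPs last (8.41 ± 1.06, adjusted p = 4.5e-05), and its call between the CMPs was lost without any 1 of the CD62L-neg CMP libraries, with DESeq2, without a filter on low counts and with the replicate block. *Ifi205*, of the interferon-inducible p200 family, was not read in any CD62L-neg CMP library and stood at 12.6 ± 2.13 CPM in the CD62L-high ones, against 0.214 ± 0.37 and 1.29 ± 0.451 CPM in CD62L-neg and CD62L-high GMPs (7.72 ± 2.03, adjusted p = 0.025). Its interaction missed the threshold without CD62L-neg CMP replicate 2, CD62L-neg CMP replicate 3, CD62L-high CMP replicate 1 or CD62L-neg GMP replicate 3, and was 3.28 without the last.

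*Samd14* fell from 118 ± 19.5 to 0.0212 ± 0.0366 CPM in CMPs and stood at 1.11 ± 0.782 and 0.136 ± 0.236 CPM in CD62L-neg and CD62L-high GMPs (-8.74 ± 1.86, adjusted p = 0.0052). *Trib2* fell from 80.4 ± 11.8 to 0.11 ± 0.0268 CPM in CMPs and stood at 2 ± 0.744 and 0.161 ± 0.168 CPM in the GMPs (-5.89 ± 1.03, adjusted p = 0.0011). *Gucy1a1* stood at 23.6 ± 11.5 and 0.795 ± 0.473 CPM in CMPs and at 0.0522 ± 0.0452 and 0.357 ± 0.618 CPM in GMPs (-7.54 ± 1.51, adjusted p = 0.0033). Without CD62L-high GMP replicate 3 the interactions of *Trib2* and *Gucy1a1* missed the threshold, at -4.84 and -2.31, and without CD62L-high GMP replicate 1 that of *Samd14* did, at -5.04. *Agpat3*, an acyltransferase of phospholipid synthesis, fell from 12 ± 1.92 to 3.87 ± 1.76 CPM in CMPs and stood at 0.0785 ± 0.136 and 4.71 ± 1.69 CPM in the GMPs (-7.37 ± 0.91, adjusted p = 3.9e-05). *Als2cl* stood at 10.8 ± 0.946 and 4.25 ± 1.04 CPM in CMPs and at 0.0788 ± 0.0801 and 0.915 ± 0.856 CPM in GMPs (-4.72 ± 1.12, adjusted p = 0.011). Neither *Agpat3* nor *Als2cl* was called between the CMPs in the fit of all 21 libraries.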

How the results depend on the processing

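Counts of called genes rest on the fold threshold. Tested against a 2-fold change with glmTreat, 473 genes were higher and 472 lower, and with no fold threshold 1869 and 1760, since these rules are stricter and looser by construction. Under the other alternatives the counts stayed within 1.5 times, among them 907 and 1079 with DESeq2. The fit of all 21 libraries gave 832 and 717 genes, and the one without bulk CMP replicate 2, chosen after seeing the data, 901 and 790. Leaving out 1 library gave 753 to 1012 higher and 880 to 927 lower genes, and 945 to 1566 genes past the interaction. A replicate block gave 844, 910 and 1192 genes, and the correlations of same-numbered libraries (0.09, -0.07 and -0.07) gave no sign that the numbers pair them, and not every library correlated best with its own number. Of counts per list, 19 moved by over 1.5 times with 1 library left out and 20 in other settings. Those with 1 library left out are given beside the lists described here. In both fits that hold the other groups, calls lower were 1 for JAK-STAT, Toll-like and NOD-like and Notch genes, 0 for TNF receptors, 2 for DNA and histone enzymes and 3 for SRC, SYK and TEC kinases, and without bulk CMP replicate 2 also 1 for Wnt and Hippo genes. Calcium and cyclic nucleotide genes were called higher in 5 without a filter on low counts. Of the called genes named in the report, 177 were tested against a 2-fold change, and 18 did not pass glmTreat, among them *Stat5a*, *Tgfbr2*, *Pkm*, *Mitf*, *Kdm5b* and *Nsd2*. In the other alternatives *Adgrg1*, *Cish* and *Idh1* of these lost a call, those in which DESeq2 gave no adjusted p aside, and of the interaction genes *Prss34*, *Agpat3* and *Als2cl* did, as given above. Genes at few counts are limited by depth, and ratios with 1 to 3 counts have wide intervals. Replicates were 3 per fraction, so the spread is estimated with few libraries.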
